A study of Bos grunniens x Bos taurus and Bos grunniens with 6 samples.

Results

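The tubulins and the enzymes that fold or modify them were followed in testis tissue of cattle-yak, the sterile male hybrid, and of yak. A gene was a member when its symbol in the deposited table was that of a numbered alpha-, beta-, gamma-, delta- or epsilon-tubulin, a TTL or TTLL ligase, an AGBL or AGTPBP1 carboxypeptidase, a vasohibin, ATAT1, a folding cofactor TBCA to TBCE or a TPPP protein. This gave 46 genes under 43 symbols out of 18918 genes. The symbols Tuba1a, TUBA1C and TUBB6 each stood on more than 1 gene, so these genes are told apart by their identifiers, and reads shared between such copies make their values uncertain. The cattle-yak group (TES5, TES6 and TES7) consisted of F1 males of a Jersey sire and a Gannan yak dam, and the yak group (Yak8, Yak9 and Yak10) of Gannan yak males. Each animal was 4 years old and gave 1 library of testis mRNA. Each group came from its own county, and the study's methods give castration for cattle-yak and euthanasia for yak, where the labels give castration for all, so that place and sampling cannot be told apart from the cross.

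Microtubules are polymers of alpha- and beta-tubulin dimers, and gamma-tubulin starts their assembly. In the testis they form the meiotic spindle, the manchette that shapes the spermatid head and the axoneme of the sperm flagellum, and in Sertoli cells they form tracks along the cell. The carboxy-terminal tails of tubulin carry side chains of glutamate, added by glutamylases and removed by cytosolic carboxypeptidases, or of glycine, added by glycylases. On alpha-tubulin the last tyrosine can also be removed by vasohibins and put back by TTL, and a lysine inside the tubule can be acetylated by ATAT1. Axonemes are among the most heavily glutamylated and glycylated microtubules of mammals.

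Levels are FPKM, fragments scaled to the length of the gene model and the depth of the library, so that genes can be compared with each other. Recovered from the FPKM values, the depth was 11175100 to 11834987 fragments for a cattle-yak library and 12991641 to 13136129 for a yak library. These are the depths behind the scaling, not the reads sequenced, of which the study lists similar totals in both groups. Differences are log2 (foldchange) values of cattle-yak against yak on the log2 (FPKM + 1) scale, which understates the change of low genes. Calls needed a log2 (foldchange) beyond 1 in either direction and, after Benjamini-Hochberg correction over the 15042 tested genes, a p under 0.05, and genes averaging under 0.5 FPKM were not tested. In bulk tissue, fewer cells of a type and less RNA per cell cannot be told apart. The markers of the tissue's cell types moved with the group. All 13 tested Sertoli cell marker genes were called higher in cattle-yak, with a summed FPKM of 2699 to 2858 against 538.5 to 616.8 in yak. GATA1 and Sox8, further ones, were too low to be tested. GATA1 was at 0 in every cattle-yak library and at 0.079, 0.397 and 0.160 FPKM in Yak8, Yak9 and Yak10. Sox8 had 0.422, 0.412 and 0.298 FPKM in TES5, TES6 and TES7 and 0.088, 0.117 and 0.148 in Yak8, Yak9 and Yak10. The 8 Leydig cell and 6 myoid cell markers tested were all called higher, and of 7 endothelial markers 4 were higher and 1 lower, and of 5 macrophage markers 2 were higher and 2 lower. All 8 round spermatid markers were called lower, with a summed FPKM of 8.36 to 42.9 against 717.8 to 787.4, as were all 9 markers of elongating spermatids, with 22.1 to 100.5 against 10714 to 13140.0. Of 10 spermatocyte markers 1 was called higher and 2 lower, and of 9 spermatogonial markers 7 were higher and none lower. The part of these cell types in the results on tubulin genes was not tested.

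Of the 44 members that could be tested, 19 (43.2%) were called lower in cattle-yak and 13 (29.5%) higher, while 20.8% of all tested genes were called lower and 33.4% higher. The glutamylases, glycylases and deglutamylases were lower almost throughout, with 14 of their 15 tested genes called lower, and 5 further members were lower. The higher ones were the Tuba1a and TUBA1C genes, TUBB3, TUBB5, TUBD1, TTL, TTLL12, Vash1, TBCC, TBCE and TPPP. The 3 cattle-yak values lay below all yak values in 21 members, against 30.2% of all tested genes, and above them in 18 members, against 53.9%. The median log2 (foldchange) was −0.39 over the tested members and 0.51 over all tested genes. How many members were higher depended on the scaling between libraries. Median-of-ratios size factors brought the median of all genes to 0.01 and that of the members to −0.86. All 19 lower members were called lower after this scaling too, while of the 13 higher members TUBB3, TUBD1, TBCC, TBCE and TPPP were no longer called and 8 were. Of all genes, 27.7% were then called lower and 17.7% higher. When each library was centred on the Sertoli markers instead, the medians were −1.70 over all genes and −2.60 over the members. On this scale 73.1% of all genes and 34 members were called lower, among them the same 19. None of the members was then called higher by limma (1 at an unadjusted p under 0.05), beside 0.213% of all genes, and 10 of the 13 lay below 0. The others, Tuba1a (ENSBGRG00000001452), TUBA1C (ENSBGRG00000010792) and TTLL12, stayed above 0. The centring was done on the log2 (FPKM + 1) scale, so a low gene falls below 0 more readily than an abundant one. TTL, TUBB5 and the minor Tuba1a gene (ENSBGRG00000000751) fell below 0, yet their means rose 6.70-, 6.78- and 5.76-fold. The means of Tuba1a (ENSBGRG00000001452) and TUBA1C (ENSBGRG00000010792) rose 5.61- and 5.66-fold. Higher levels are therefore given below with their value relative to the Sertoli markers.

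**Figure D1:**
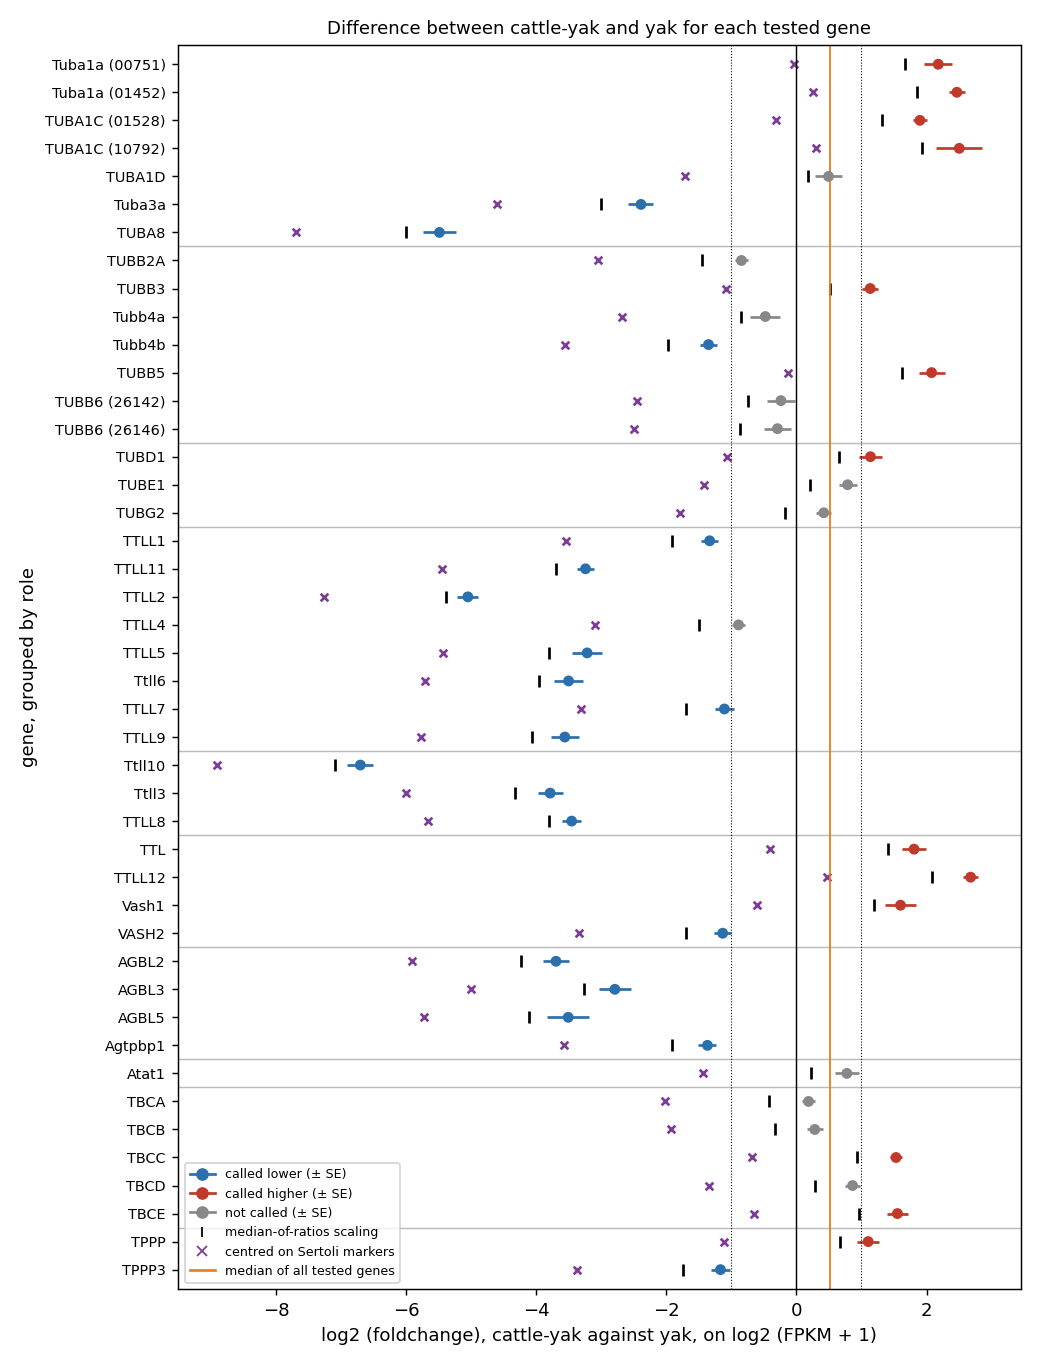
The x axis gives the log2 (foldchange) of cattle-yak against yak for each of the 44 tested members, listed on the y axis by role, with bars for the standard error (n = 3 animals a group). Points in blue are called lower and points in red higher, ticks and crosses give the value after median-of-ratios scaling and after centring on Sertoli markers, and the orange line is the median of all tested genes (0.51). The enzymes of glutamate and glycine chains lie left of 0 on every scale, while most red points pass to the left of 0 when centred on the Sertoli markers.

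The alpha-tubulins changed in composition. Tuba3a (ENSBGRG00000013042, described as tubulin alpha 3d), the alpha-tubulin gene known for its expression in the testis, was the most abundant member in yak, with 1655, 1839.6 and 1528 FPKM in Yak8, Yak9 and Yak10. It had 437, 263 and 278 FPKM in TES5, TES6 and TES7, 5.13 times less on average (326 ± 96.6 against 1674 ± 157, mean ± SD, n = 3), which gave a log2 (foldchange) of −2.39 with a standard error of 0.19 (limma adjusted p = 8.1e-06). No cattle-yak animal reached the lowest yak value, and the highest hybrid was TES5. TUBA8 (ENSBGRG00000000932), an isotype found in few tissues, went down much further. Its FPKM was 136, 147 and 165 in the yak and 3.67, 2.69 and 1.15 in TES5, TES6 and TES7, which made a log2 (foldchange) of −5.49 with a standard error of 0.26 (limma adjusted p = 5.7e-07). The TUBA8 level in the highest hybrid was thus far under that of the lowest yak, and the fall from mean to mean was 59.6-fold.

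The alpha-tubulins of general use went the other way. The Tuba1a gene ENSBGRG00000001452, which the table describes as tubulin alpha 1b, had 354, 455 and 445 FPKM in TES5, TES6 and TES7 and 71.7, 69.3 and 82.5 in Yak8, Yak9 and Yak10. It was higher in cattle-yak by a log2 (foldchange) of 2.47 with a standard error of 0.13 (limma adjusted p = 7.8e-07), and had 0.26 when centred on the Sertoli markers, where it was not called. The other Tuba1a gene (ENSBGRG00000000751) was a minor one with 13.1, 14.8 and 15.9 FPKM in the hybrids and 2.08, 3.77 and 1.76 in yak. Its log2 (foldchange) of 2.18 became −0.03 in relation to the Sertoli markers. Voom on the fragments gave this gene 2.59, so its centred value is lowered by the 1 added to the FPKM. The TUBA1C genes had similar levels in cattle-yak, 44.0 ± 1.77 for ENSBGRG00000001528 and 44.4 ± 6.39 for ENSBGRG00000010792 (FPKM, mean ± SD, n = 3). In yak they had 11.1 ± 1.15 and 7.84 ± 5.15, so that their log2 (foldchange) values were 1.90 and 2.50, of which the first was −0.31 and the second 0.29 when centred on the Sertoli markers. The spread of the second came mostly from Yak9, with 13.7 FPKM beside 5.86 and 3.97 in Yak8 and Yak10. TUBA1D (ENSBGRG00000021181), with 1.75, 1.86 and 1.11 FPKM in the hybrids and 1.25, 0.492 and 0.771 in yak, overlapped between the groups and was not called (log2 (foldchange) 0.49, limma adjusted p = 0.056).

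Summed over the 7 alpha-tubulin genes, the FPKM was 890.5, 829 and 834 in TES5, TES6 and TES7 and 1882, 2084 and 1794 in Yak8, Yak9 and Yak10. Tuba3a made up 87.9, 88.3 and 85.2% of this sum in the yak animals, and 49.1, 31.7 and 33.3% in the cattle-yak animals. The Tuba1a gene ENSBGRG00000001452 took 39.8, 54.9 and 53.4% in cattle-yak and 3.91% ± 0.641 (mean ± SD, n = 3) in yak. Counted as fragments, without the correction for gene length, the share of Tuba3a was 20.5% in the hybrids and 77.8% in yak. TUBA8 held 7.82% ± 1.19 of the summed FPKM in yak and 0.291% ± 0.1395 in cattle-yak. By FPKM, Tuba3a was the first alpha-tubulin of TES5 and of every yak, whereas in TES6 and TES7 it came after Tuba1a. In fragments Tuba1a (ENSBGRG00000001452) came first in TES5 too, with 60.7% beside 28.4% for Tuba3a.

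The beta-tubulins were divided in the same manner. Tubb4b (ENSBGRG00000011047), the beta-tubulin of cilia and flagella, led this class in yak with 1085, 1165 and 1049.6 FPKM in Yak8, Yak9 and Yak10. In TES5, TES6 and TES7 it had 518, 378 and 404 FPKM, a log2 (foldchange) of −1.35 with a standard error of 0.13 (limma adjusted p = 2.4e-05). The groups did not overlap, and the mean fell 2.54-fold, less than that of Tuba3a. TUBB3 (ENSBGRG00000024423), otherwise known from neurons, was called higher, with 153, 173 and 131 FPKM in the hybrids and 64.6, 73.8 and 67.1 in yak (log2 (foldchange) 1.13, limma adjusted p = 4.0e-05), but it was 0.52 after median-of-ratios scaling and −1.08 when centred on the Sertoli markers. The gene that the table names TUBB5 (ENSBGRG00000018741), at 7.104, 7.99 and 11.3 FPKM in the hybrids and 0.954, 1.52 and 1.42 in yak, had a log2 (foldchange) of 2.08 that became −0.13 in relation to the Sertoli markers. Voom on the fragments gave TUBB5 2.74, so its centred value is lowered by the 1 added to the FPKM. TUBB5 rested on 17 to 27 fragments in a yak library and 114 to 178 in a cattle-yak library. Reads that it may share with the far more abundant TUBB make its values uncertain.

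TUBB2A (ENSBGRG00000008862) lay lower in every hybrid, with 59.4, 49.1 and 55.5 FPKM against 99.2, 96.8 and 100.2 in yak, yet its log2 (foldchange) of −0.85 stayed short of −1 (limma adjusted p = 6.7e-05). After median-of-ratios scaling it was −1.46 and called lower. Tubb4a and the TUBB6 genes were not called and overlapped between the groups, with log2 (foldchange) values of −0.48 for Tubb4a, −0.24 for ENSBGRG00000026142 and −0.29 for ENSBGRG00000026146 (limma adjusted p = 0.085, 0.32 and 0.22). Tubb1 (ENSBGRG00000024823), the isotype of platelets, was under the minimum for the test, with 2, 3 and 1 fragments in TES5, TES6 and TES7 and 0 in each yak library. The main beta-tubulin of general use, TUBB (ENSBGRG00000008599), carries no number in its symbol and was therefore no member. It is given here because the class cannot be read without it. TUBB had 434, 484 and 429 FPKM in the hybrids and 90.2, 84.7 and 89.9 in yak, a log2 (foldchange) of 2.33 (limma adjusted p = 2.6e-07) and of 0.12 when centred on the Sertoli markers.

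With TUBB included, the summed beta-tubulin FPKM was 1191, 1119 and 1046 in TES5, TES6 and TES7 and 1361, 1448 and 1335 in Yak8, Yak9 and Yak10. Tubb4b formed 38.7% ± 4.87 of it in cattle-yak and 79.6% ± 0.931 in yak (mean ± SD, n = 3), and TUBB 40.2% ± 3.46 and 6.404% ± 0.482. The summed alpha- over the summed beta-tubulin FPKM was 0.748, 0.741 and 0.797 in cattle-yak and 1.38, 1.44 and 1.34 in yak. Transcripts of alpha-tubulin thus outnumbered those of beta-tubulin per length in the yak animals, and the reverse held in the hybrids, which does not depend on scaling between libraries but does depend on the length correction. In fragments, without that correction, alpha- exceeded beta-tubulin in every animal, with ratios of 1.204, 1.34 and 1.43 in TES5, TES6 and TES7 and 1.53, 1.60 and 1.51 in Yak8, Yak9 and Yak10. Without TUBB the ratio of the summed FPKM lay above 1 in all animals, at 1.18 to 1.35 in the hybrids and 1.44 to 1.53 in yak.

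**Figure D2:**
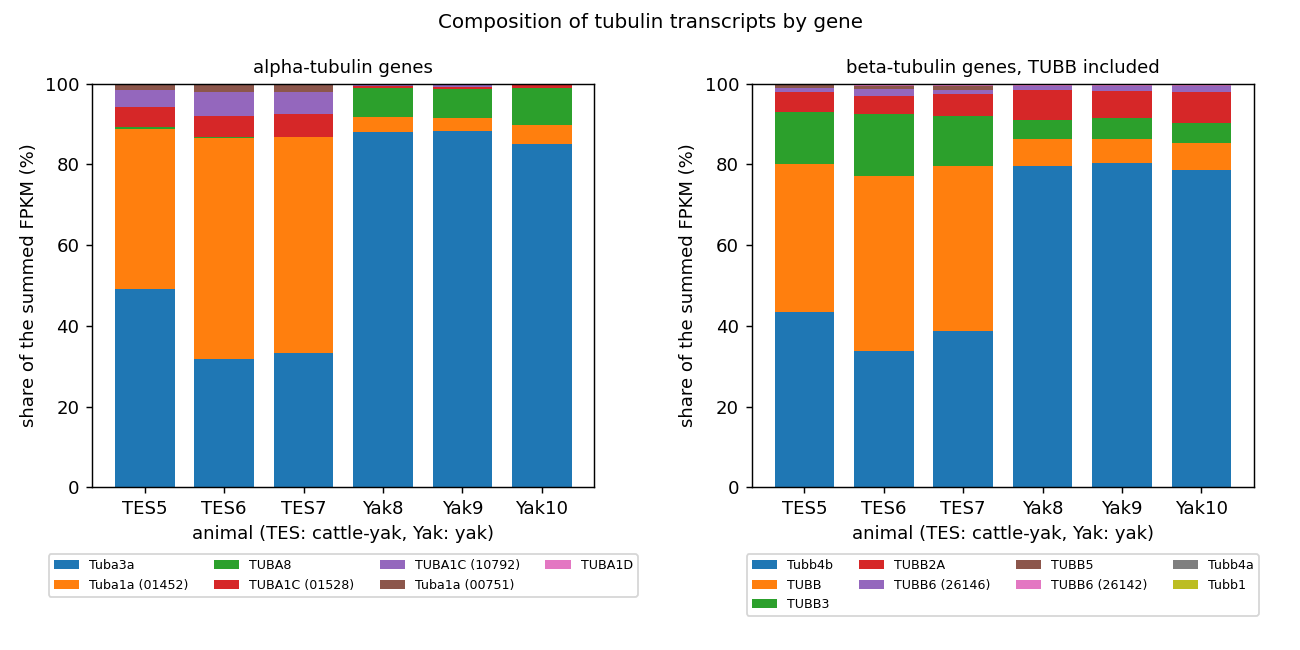
Stacked bars give the share (%) of each gene in the summed FPKM of the alpha-tubulin genes (left) and of the beta-tubulin genes with TUBB (right), 1 bar per animal, with TES for cattle-yak and Yak for yak. Tuba3a and Tubb4b fill 85.2% to 88.3% and 78.6% to 80.5% of the yak bars, against 31.7% to 49.1% and 33.8% to 43.5% of the cattle-yak bars.

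Among the less abundant tubulins of centrioles and nucleation, 1 of 3 was called higher, beside 33.4% of all tested genes. All 3 were below 0 when centred on the Sertoli markers. TUBD1 (ENSBGRG00000020980), delta-tubulin of the centriole, had 5.57, 7.19 and 7.13 FPKM in the hybrids and 2.65, 1.81 and 3.003 in yak and was called higher (log2 (foldchange) 1.14, limma adjusted p = 4.7e-04), which was 0.99 without Yak9 and −1.07 when centred on the Sertoli markers. TUBE1 (epsilon-tubulin, ENSBGRG00000012582) had 19.9, 21.9 and 19.1 FPKM in the hybrids against 9.47, 12.7 and 12.1 in yak, and TUBG2 (a gamma-tubulin, ENSBGRG00000009043) 47.6, 48.7 and 39.4 against 33.03, 31.9 and 35.4. In each of them the lowest hybrid stood above the highest yak, but with log2 (foldchange) values of 0.79 and 0.42 (limma adjusted p = 7.7e-04 and 0.0081) neither passed 1, and TUBG2 was −0.18 after median-of-ratios scaling.

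**Figure D3:**
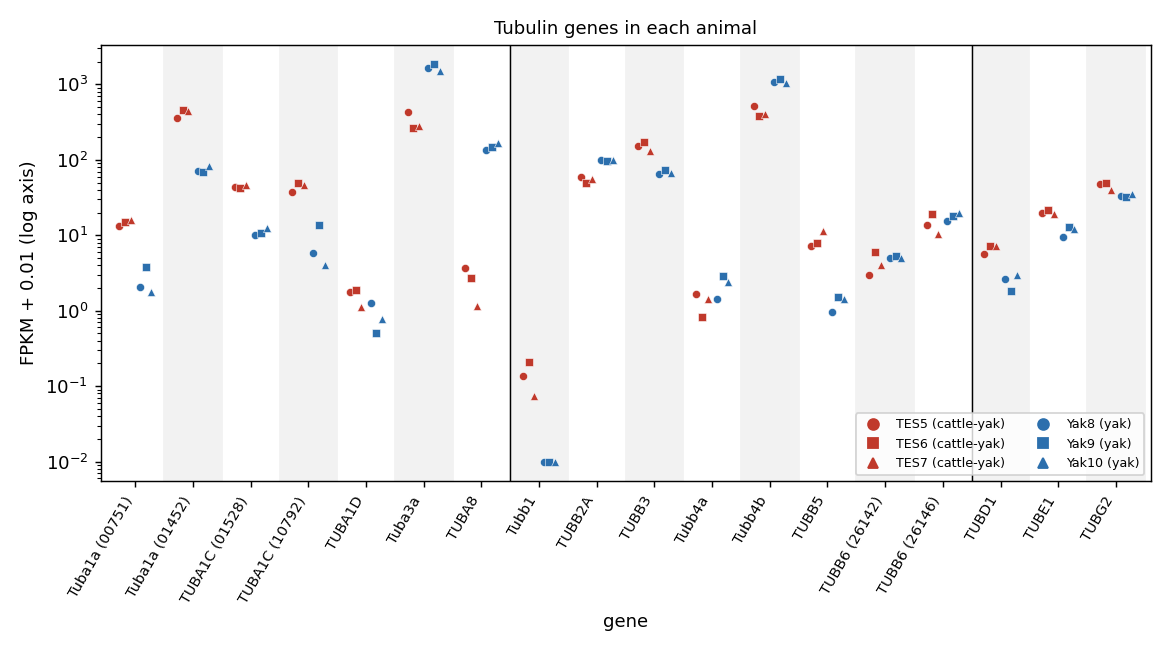
FPKM plus 0.01 on a log axis is shown for the 18 tubulin genes of the member list in each animal, cattle-yak in red and yak in blue, with vertical lines between the alpha, the beta and the remaining tubulins. Tuba3a and Tubb4b, the genes that lead in yak, are lower in every hybrid, the Tuba1a gene ENSBGRG00000001452 is higher on the deposited scale (not called when centred on the Sertoli markers), and TUBA8 shows the widest gap.

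The glutamylases were lower in cattle-yak as a class. Of 8 genes tested 7 were called lower, in all 8 every hybrid was below every yak, and the median log2 (foldchange) was −3.23. TTLL5 (ENSBGRG00000009576), an initiating glutamylase whose loss is known to impair sperm in mice, was the most abundant one in yak, with 151, 151 and 129 FPKM in Yak8, Yak9 and Yak10. In TES5, TES6 and TES7 it had 20.5, 15.3 and 9.64, a log2 (foldchange) of −3.22 with a standard error of 0.23 (limma adjusted p = 4.4e-06). The TTLL5 values of the hybrids were spread, with the highest in TES5 and the lowest in TES7, but none came near the yak. TTLL4 (ENSBGRG00000000831), which acts mainly on beta-tubulin, was the least changed. It had 51.3, 54.4 and 47.2 FPKM in the hybrids and 102, 97.3 and 86.8 in yak, and its log2 (foldchange) of −0.89 missed the threshold of 1 (limma adjusted p = 6.5e-05), which it passed with −1.50 after median-of-ratios scaling. TTLL4 made up 49.2, 52.8 and 54.6% of the summed glutamylase FPKM in the hybrids and 22.99, 22.3 and 21.8% in the yak, where TTLL5 was first with 33.98, 34.6 and 32.4%.

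The largest glutamylase change was that of TTLL2 (ENSBGRG00000012397), for which little is known beyond its place in the family. In yak it had 43.4, 41.9 and 33.1 FPKM, or 905, 871 and 683 fragments, while in TES5, TES6 and TES7 it was represented by 7, 3 and 2 fragments. Summed over the animals and set against the depth, yak had 180.8 times the fragments of cattle-yak (95% exact interval 103.3 to 350.3, which covers counting error only), and 285.5 times without TES5. On the log2 (FPKM + 1) scale TTLL2 had −5.05 (limma adjusted p = 1.2e-07). TTLL9 (ENSBGRG00000016696), a glutamylase of the sperm flagellum, had 3.32, 2.43 and 1.297 FPKM against 36.5, 35.8 and 39.5 in yak, giving a log2 (foldchange) of −3.56 with a standard error of 0.22 (limma adjusted p = 2.0e-06). Ttll6 (ENSBGRG00000021744) and TTLL11 (ENSBGRG00000012619), which lengthen the side chains, had log2 (foldchange) values of −3.50 and −3.24. Their cattle-yak means were 1.44 ± 0.769 and 1.295 ± 0.122 FPKM and their yak means 25.7 ± 0.855 and 20.7 ± 1.205 (mean ± SD, n = 3), and TTLL11 varied little among the hybrids. TTLL1 (ENSBGRG00000013993), the catalytic subunit of the polyglutamylase complex, fell less, from 33.7 ± 3.95 to 12.7 ± 1.28 FPKM (log2 (foldchange) −1.33, limma adjusted p = 2.1e-05). TTLL7 (ENSBGRG00000001582), at 13.7 ± 2.19 FPKM in the hybrids and 30.6 ± 3.604 in yak, had −1.11, which was −0.98 without TES5 and then no longer past the threshold.

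All 3 glycylases were called lower, and their median log2 (foldchange) of −3.79 was the lowest of the member classes. Ttll10 (ENSBGRG00000014682), which elongates glycine chains in mice, had 155, 146 and 176 FPKM in Yak8, Yak9 and Yak10 and 1.09, 0.312 and 0.3002 in TES5, TES6 and TES7, a log2 (foldchange) of −6.71 with a standard error of 0.20 (limma adjusted p = 9.8e-08). Behind these values stood 4098, 3841 and 4590 fragments in yak and 26, 7 and 7 in cattle-yak, so that yak had 276.3 times the fragments at equal depth (95% exact interval 202.8 to 387), and 519.5 times without TES5, which held most of the hybrid fragments. Ttll3 and TTLL8, the enzymes that set the first glycine, were lower as well. Ttll3 (ENSBGRG00000010427) had 4.14, 5.07 and 2.598 FPKM in the hybrids and 69.4, 59.3 and 68.4 in yak, a log2 (foldchange) of −3.79 (limma adjusted p = 7.9e-07). TTLL8 (ENSBGRG00000002326) was at 8, 9 and 11 fragments in cattle-yak and 569, 437 and 507 in yak, a log2 (foldchange) of −3.46, and unlike most lower members it was not highest in TES5. Since Ttll10 fell further than Ttll3, their order turned around. Ttll10 held 64.9, 67.4 and 68.3% of the summed glycylase FPKM in the yak animals and 20.03, 5.51 and 9.33% in TES5, TES6 and TES7, where Ttll3 held 75.8, 89.7 and 80.7%.

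The carboxypeptidases that shorten glutamate chains were lower together with the enzymes that build them. AGBL5 (ENSBGRG00000012181), which removes the glutamate at the branch point, was the most abundant enzyme among all members in yak. Its FPKM was 329, 327 and 258 in Yak8, Yak9 and Yak10 and 43.2, 25.97 and 14.9 in TES5, TES6 and TES7, giving a log2 (foldchange) of −3.51 with a standard error of 0.32 (limma adjusted p = 1.7e-05). The standard error of AGBL5 was the widest of the enzymes of this class, and the hybrids ranged from 14.9 to 43.2 FPKM without reaching the yak. AGBL2 (ENSBGRG00000019908) and AGBL3 (ENSBGRG00000003945), are known to trim long chains. AGBL2 had 4.56, 3.72 and 2.096 FPKM against 57.02, 52.4 and 56.3 in yak, a log2 (foldchange) of −3.70 (limma adjusted p = 1.2e-06). For AGBL3 the hybrids had 2.89, 1.96 and 0.911 FPKM and the yak 17.9, 17.7 and 19.6, a log2 (foldchange) of −2.79 (limma adjusted p = 1.3e-05). Agtpbp1 (ENSBGRG00000004819), whose loss is known to cause degeneration of neurons and male sterility in mice, changed least, with 5.003, 5.04 and 5.72 FPKM against 15.4, 17.1 and 13.1 in yak (log2 (foldchange) −1.37, limma adjusted p = 3.1e-05). AGBL1 (ENSBGRG00000011876) was under the minimum for the test. It had 43, 27 and 28 fragments in Yak8, Yak9 and Yak10 against 2 in TES5 and 0 in TES6 and TES7, a ratio of 43.2 at equal depth whose 95% exact interval runs from 11.7 to 362.0.

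Set side by side, the summed FPKM of the glutamylases was 97.9 ± 9.93 in the hybrids and 427 ± 24.1 in yak, that of the deglutamylases 38.7 ± 16.1 in the hybrids and 394 ± 40.6 in yak, and that of the glycylases 4.78 ± 1.35 in the hybrids and 238 ± 20.5 in yak (mean ± SD, n = 3). The glutamylase sum was 1.06, 1.05 and 1.15 times the deglutamylase sum in Yak8, Yak9 and Yak10, and 1.87, 2.81 and 3.66 times in TES5, TES6 and TES7. Over the glycylase sum it was 1.86, 2.02 and 1.55 times in yak and 19.1, 18.2 and 26.9 times in cattle-yak. These ratios are taken within a library and do not depend on scaling between libraries. The sums rest mostly on TTLL4 and TTLL5, on AGBL5 and on Ttll10 and Ttll3. Gene by gene the median log2 (foldchange) was −3.15 for the deglutamylases and −3.23 for the glutamylases, and the difference between the classes was not tested.

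**Figure D4:**
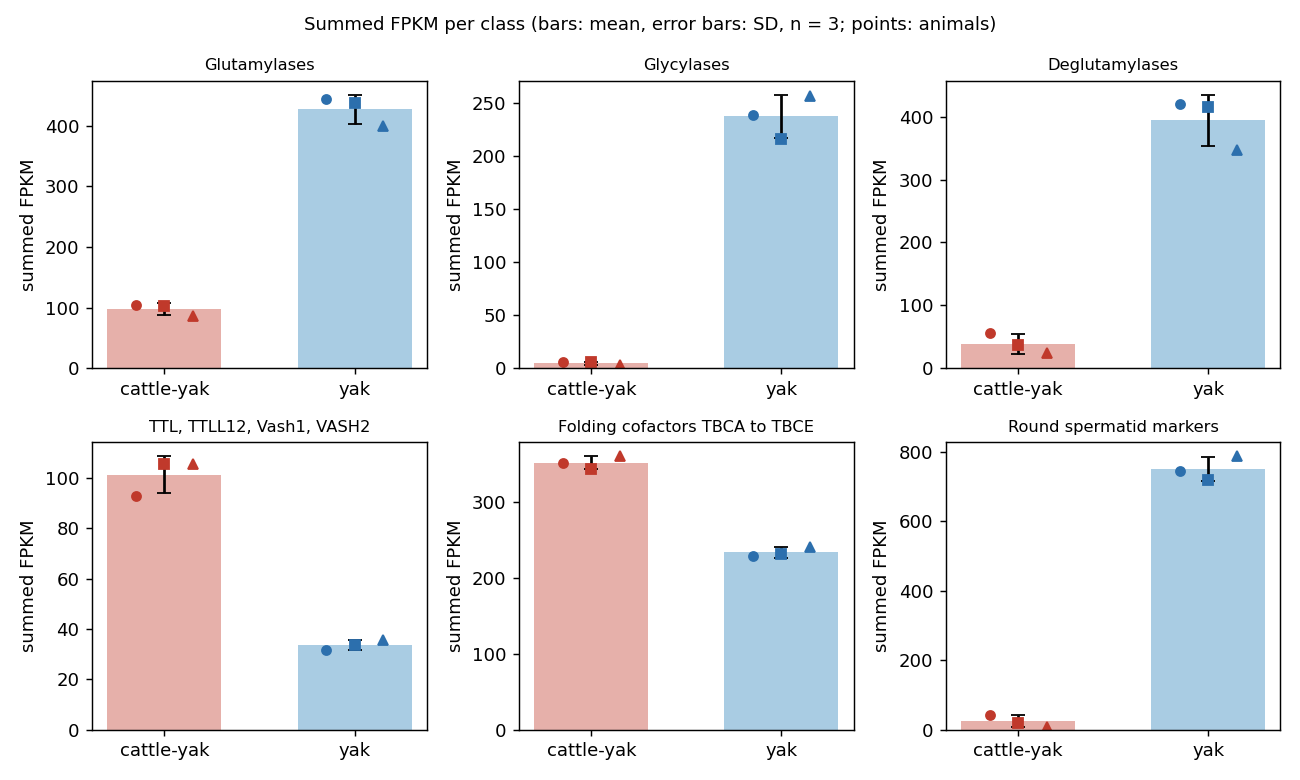
Bars give the mean summed FPKM of 5 member classes and of the round spermatid markers in cattle-yak (red) and yak (blue), with error bars for the SD (n = 3 animals) and points for the animals. Glutamylases, glycylases and deglutamylases are lower in cattle-yak, as are the spermatid markers, while the classes of TTL, TTLL12 and the vasohibins and of the folding cofactors are higher in every hybrid on the deposited scale, although the genes of the latter were all below 0 when centred on the Sertoli markers.

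Genes of the tyrosination cycle and the related TTLL12 moved in both directions. TTL (ENSBGRG00000012700), the ligase that adds tyrosine back to alpha-tubulin, had 4.22, 5.34 and 6.32 FPKM in TES5, TES6 and TES7 and 1.04, 0.577 and 0.756 in Yak8, Yak9 and Yak10, a log2 (foldchange) of 1.81 (limma adjusted p = 3.1e-05) that was −0.40 when centred on the Sertoli markers. In yak TTL was represented by 18, 10 and 13 fragments. Voom on the fragments gave TTL 2.72, so its centred value is lowered by the 1 added to the FPKM. Vash1 (ENSBGRG00000010704) and VASH2 (ENSBGRG00000020510), the vasohibins that remove this tyrosine, had opposite calls. Vash1 was higher in cattle-yak, at 3.905, 7.03 and 3.78 FPKM against 1.16, 1.01 and 0.559 in yak (log2 (foldchange) 1.60, limma adjusted p = 3.2e-04). It was −0.61 in relation to the Sertoli markers, a value lowered in the same way, and 2.42 with voom. VASH2 was lower, at 9.47, 8.85 and 7.302 FPKM against 18.8, 19.97 and 20.8 in yak (log2 (foldchange) −1.13, limma adjusted p = 5.9e-05). Within a library, VASH2 had 2.42, 1.26 and 1.93 times the FPKM of Vash1 in the hybrids and 16.3, 19.8 and 37.2 times in yak, so that VASH2 was the more abundant vasohibin in all animals. TTLL12 (ENSBGRG00000014459), a relative of TTL whose activity on tubulin is poorly defined, had the largest increase of any member. It had 75.2, 84.2 and 88.2 FPKM in the hybrids and 10.7, 11.96 and 13.6 in yak, a log2 (foldchange) of 2.68 with a standard error of 0.12 (limma adjusted p = 4.5e-07), and stayed at 0.47 when centred on the Sertoli markers.

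Atat1 (ENSBGRG00000007717), the acetyltransferase of alpha-tubulin, had 9.21, 14.7 and 9.62 FPKM in the hybrids and 6.38, 5.66 and 5.89 in yak. The groups did not overlap, TES6 was the highest, and the log2 (foldchange) of 0.78 (limma adjusted p = 0.0042) was under the threshold, 0.58 without TES6 and −1.43 when centred on the Sertoli markers. The 5 folding cofactors bring alpha- and beta-tubulin together into a dimer, and all 5 lay below 0 when centred on the Sertoli markers. Of them 2 were called higher, beside 33.4% of all tested genes. TBCC (ENSBGRG00000021407) and TBCE (ENSBGRG00000018596), which take part in the late complex that releases the dimer, were these. TBCC had 74.3, 72.7 and 70.9 FPKM in the hybrids against 26.2, 23.4 and 23.95 in yak, and TBCE 33.4, 52.9 and 43.7 against 14.7, 13.7 and 13.2. Their log2 (foldchange) values of 1.53 and 1.55 (limma adjusted p = 1.8e-06 and 3.9e-05) were 0.93 and 0.96 after median-of-ratios scaling and −0.68 and −0.66 when centred on the Sertoli markers. TBCD (ENSBGRG00000006906), a member of the same complex, had 0.86 (adjusted p = 1.7e-04) and missed the fold threshold. TBCA (ENSBGRG00000006236) and TBCB (ENSBGRG00000019178), which bind single beta- and alpha-tubulin, did not pass the test. TBCA was the most abundant cofactor, with 149, 125 and 156 FPKM in the hybrids and 126, 123 and 127 in yak (log2 (foldchange) 0.19, limma adjusted p = 0.13), and TBCB had 0.28 (adjusted p = 0.063), values that were −0.43 and −0.33 after median-of-ratios scaling. The genes TPPP (ENSBGRG00000022305) and TPPP3 (ENSBGRG00000026802), which promote polymerization, had opposite calls. TPPP had 4.06, 4.71 and 4.26 FPKM in the hybrids against 1.81, 1.08 and 1.63 in yak (log2 (foldchange) 1.10, limma adjusted p = 3.2e-04), 0.97 without Yak9 and −1.11 in relation to the Sertoli markers. TPPP3 had 11.8, 9.498 and 9.79 FPKM in the hybrids against 27.8, 25.6 and 20.5 in yak (log2 (foldchange) −1.17, limma adjusted p = 1.1e-04).

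**Figure D5:**
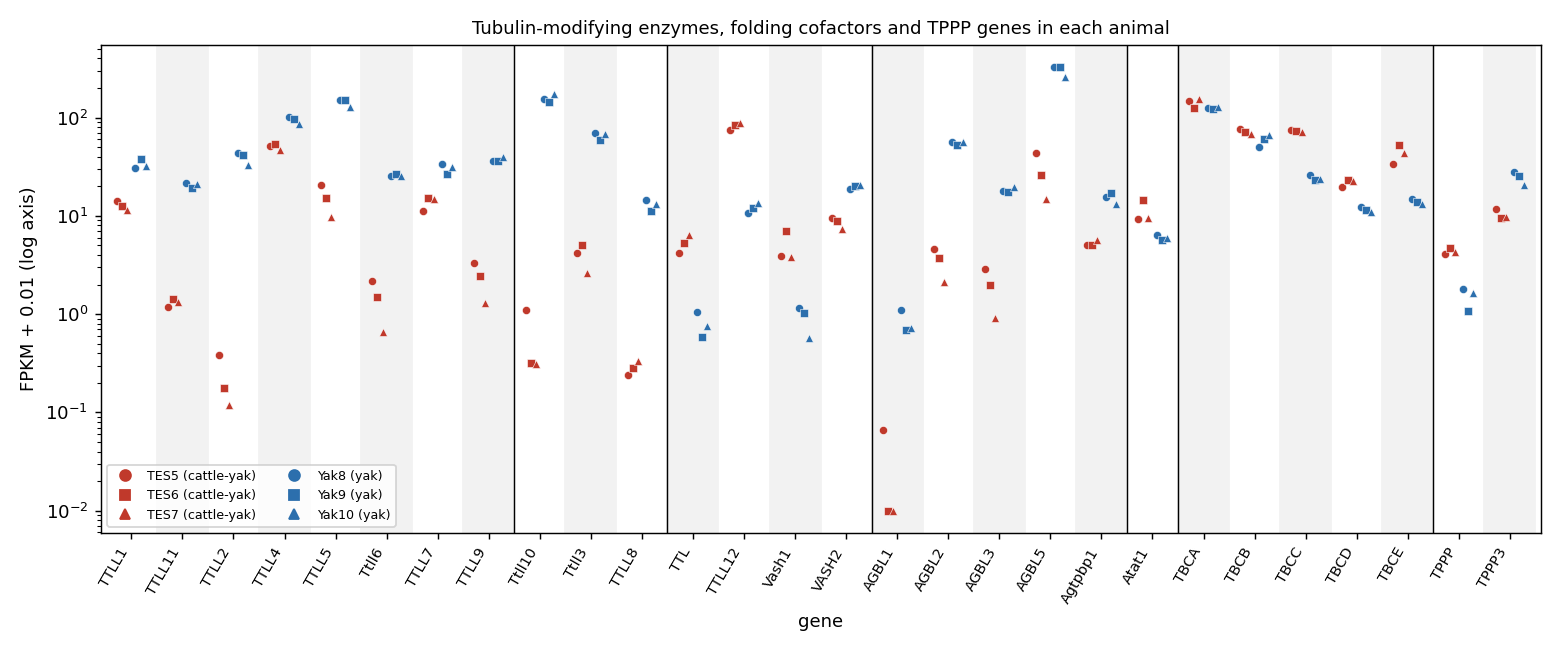
FPKM plus 0.01 on a log axis is shown for the 28 members that modify or fold tubulin or belong to the TPPP family, in each animal, cattle-yak in red and yak in blue. Vertical lines separate glutamylases, glycylases, the tyrosination group, deglutamylases, Atat1, folding cofactors and TPPP genes, and the red points of the glutamylases, glycylases and deglutamylases lie below the blue points in every gene.

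The order among the hybrids in the lower members was close to that of all genes called lower. Of the 19 genes called lower, 14 (73.7%) had their highest cattle-yak value in TES5 and 12 (63.2%) their lowest in TES7, as did 66.1% and 59.2% of the 3136 genes called lower in the whole table. The round spermatid markers had a summed FPKM of 42.9, 20.2 and 8.36 in TES5, TES6 and TES7, and those of elongating spermatids 100.5, 39.2 and 22.1. Tuba3a, Tubb4b, TUBA8, TTLL5, Ttll6, TTLL9, Ttll10 and AGBL5 are examples with the highest value in TES5. Of the 13 higher members, 9 (69.2%) had their lowest cattle-yak value in TES5, as did 49.2% of the 5023 genes called higher in the whole table. The part of the remaining germ cells in this order was not tested.

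Lists of related genes were read from the same fit, in which 33.4% of all tested genes were called higher and 20.8% lower. Among the tektins and proteins inside the doublet microtubules of the axoneme, 12 of 14 genes were called lower and none higher, with a median log2 (foldchange) of −3.97 beside 0.51 over all tested genes. The changes of SAXO1, TEKT2 and TEKT5 were −5.99, −5.79 and −5.75. TEKT2, the most abundant of these, had 5.18 ± 4.01 FPKM in the hybrids and 294 ± 23.8 in yak (mean ± SD, n = 3). Of 7 genes for partners of the modifying enzymes, 3 were lower and none higher. These were Tpgs2, LRRC49 and NICN1, subunits of the polyglutamylase complex, with log2 (foldchange) values of −2.43, −1.50 and −1.94, and the median of the 7 was −0.29. Each of the 3 was below that of the catalytic subunit TTLL1. Tpgs1, a further subunit of this complex, went the other way without being called, and every hybrid was above every yak. It had 18.1 ± 2.88 FPKM in the hybrids and 9.58 ± 1.06 in yak (mean ± SD). Its log2 (foldchange) was 0.85 (limma adjusted p = 8.8e-04), or −1.36 when centred on the Sertoli markers. Of 2 tubulin deacetylases, Sirt2 was called lower (−2.32, limma adjusted p = 1.3e-06). The chaperonin and prefoldin list, which folds new tubulin, had 4 of 19 genes higher, 4 lower and a median of −0.36. Here CCT6B, the chaperonin subunit of the testis, had 44.9 ± 17.6 FPKM in the hybrids and 194 ± 14.5 in yak (mean ± SD, n = 3), and its paralog CCT6A was higher with 1.18, or −1.03 when centred on the Sertoli markers.

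Of 19 genes of the gamma-tubulin ring complex and nucleation, 7 were higher and 2 lower, with a median of 0.27. Beside this list and the next, 33.4% of all tested genes were called higher and 20.8% lower. HAUS4, of the augmin complex, and CDK5RAP2, a centrosomal activator, were the lower ones (−2.34 and −1.77), and HAUS7, TUBGCP5 and MZT1 had the largest increases (1.52, 1.45 and 1.44), which were all below 0 when centred on the Sertoli markers. Among 12 severing and depolymerising genes, 3 were higher and 4 lower, with a median of −0.35. The katanin-like KATNAL2, linked to sperm formation, was lower (−2.05), while the stathmin Stmn2 and KATNBL1 were higher (2.20 and 2.10, both below 0 in relation to the Sertoli markers). Of 20 genes that bind microtubule ends or walls, 4 were higher, 3 lower and 13 not called, with a median of −0.24. MAPT, which encodes tau, and MAP1S had −3.35 and −2.91, and MAP7D2 and MAPRE1, which encodes the end-binding protein EB1, had 2.42 and 1.81, the latter −0.40 when centred on the Sertoli markers. Beside these lists, the members that build or trim glutamate and glycine chains had 14 of 15 genes called lower and the tektin list 12 of 14, counts set side by side without a test.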

How the data were processed

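Poly(A) RNA (TruSeq Stranded mRNA kit) of 1 testis sample from each of 3 cattle-yak and 3 yak was sequenced in pairs. After trimming with Trimmomatic, the authors mapped both groups to the yak genome LU_Bosgru_v3.0 with HISAT2 and deposited FPKM values per gene, for which Cufflinks is named; versions are not given in the sources used here. In the study's mapping figures every cattle-yak library had a lower share of mapped reads than every yak library. Whether reads of the Jersey alleles map less well was not tested. Ratios between the FPKM values of a gene across libraries returned whole fragments for each of the 17973 genes that had 2 or more values above 0 (within 0.03 of a fragment), with a gene length and a depth per library. Intervals and floors from these fragments cover counting error only, and 1 fragment on a gene of 1 kb was worth 0.0761 to 0.0895 FPKM. Groups came from the sample labels, and each library stands for a separate animal.

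Genes averaging 0.5 FPKM or more across all 6 animals were tested with limma 3.58.1 (R 4.3.3, lmFit and eBayes with trend, two-sided) on log2 (FPKM + 1). Calls needed an absolute log2 (foldchange) over 1 and a p under 0.05 after Benjamini-Hochberg correction. On simulated data of 15042 genes, 189 of 200 genes changed 4-fold were called, in the right direction, and 1 unchanged gene was called. In the deposited data, 12315 of the 15042 tested genes had a limma adjusted p under 0.05. How often unchanged genes are called when so many genes differ was not tested. Tables and plots were made with Python 3.11.15 (numpy 2.4.6, pandas 2.3.3, matplotlib 3.10.9). The members and lists were chosen with earlier results of these data known. Every tested member could be named, and untested members were counted and named. Of each other list at most the 3 called genes with the largest change in each direction and without overlap between the groups were named. Exceptions were TUBB, Tpgs1 and the markers GATA1 and Sox8, named after their values were seen. Alternatives were a pseudocount of 0.1, no filter or a minimum of 5 FPKM, TPM, median-of-ratios scaling, centring on the 13 Sertoli markers, no trend, voom on the recovered fragments and leaving out each animal, and, added after the data were seen, alpha over beta-tubulin in fragments and the fragment ratios without each hybrid. No sequences were used here, and 1 gene of a related list is not reported here.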

Additional observations from a re-analysis of the deposited data

How the results depend on the processing

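A pseudocount of 0.1, no filter, TPM, limma without trend and voom on the recovered fragments left the direction and the call of all 44 tested members as they were. Scaling between libraries had the largest effect, on all genes as on the members. Of all tested genes, 17.7% were called higher with median-of-ratios scaling. Centred on the Sertoli markers, 73.1% of all tested genes were called lower and 0.213% higher. With median-of-ratios scaling, 8 members were called higher, the median log2 (foldchange) of the members was −0.86, and TUBG2 (−0.18), TBCA (−0.43) and TBCB (−0.33) changed sign. Centred on the Sertoli markers, 34 members were called lower and 0 higher by limma (1 at an unadjusted p under 0.05), the median was −2.60, and 17 members changed sign, with log2 (foldchange) values of −0.03 for the minor Tuba1a gene, −0.31 for the TUBA1C gene ENSBGRG00000001528, −1.72 for TUBA1D, −1.08 for TUBB3, −0.13 for TUBB5, −1.07 for TUBD1, −1.42 for TUBE1, −1.79 for TUBG2, −0.40 for TTL, −0.61 for Vash1, −1.43 for Atat1, −2.02 for TBCA, −1.93 for TBCB, −0.68 for TBCC, −1.35 for TBCD, −0.66 for TBCE and −1.11 for TPPP. For low genes such as the minor Tuba1a gene, TTL, TUBB5 and Vash1 these centred values are lowered by the 1 added to the FPKM. A minimum of 5 FPKM left 37 members, whose median was −1.11. As a share of recovered fragments, which is not corrected for length, Tuba3a made up 20.5% of alpha-tubulin in cattle-yak and 77.8% in yak, and Tubb4b 44.9% and 67.3% of beta-tubulin (TUBB left out).

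Leaving out 1 animal at a time gave 18 to 19 members lower, 11 to 13 higher and a median of −0.53 to −0.31. The share of Tuba3a ranged from 32.5% to 41.2% in the hybrids and 86.5% to 88.1% in yak, and that of Tubb4b among the beta-tubulins without TUBB from 62.5% to 67.0% in the hybrids and 84.8% to 85.4%. Without TES5 the call of TTLL7 was lost, and without Yak9 those of TUBD1 and TPPP. No paired analysis was possible because the groups share no animal number in the labels. Depth limits Tubb1 and AGBL1, which were not tested, and members with few fragments such as TTL in yak and TTLL2, Ttll10 and TTLL8 in cattle-yak.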

Other observations

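Among all 15042 tested genes ordered by log2 (foldchange), Ttll10 stood at place 74 and TUBA8 at place 238 from the lowest, and TTLL12 at place 172 from the highest. The 46 members held 0.397%, 0.373% and 0.351% of the summed FPKM of TES5, TES6 and TES7 and 0.774%, 0.813% and 0.719% of that of Yak8, Yak9 and Yak10. Agtpbp1 made up 8.98, 13.7 and 24.2% of the summed deglutamylase FPKM in TES5, TES6 and TES7 and 3.66, 4.12 and 3.77% in Yak8, Yak9 and Yak10, while AGBL5 remained first in every animal with 63.1% to 78.8%. TTLL12 made up 81.05, 79.9 and 83.5% of the class of TTL, TTLL12 and the vasohibins in cattle-yak and 33.8, 35.7 and 38.05% in yak, where VASH2 led with 59.3, 59.6 and 58.3%. The order within this class thus differed between every hybrid and every yak.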
